A study of Mus musculus with 7 samples.

Results

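Ubl4a, the X-linked gene for the ubiquitin-like protein GdX (UBL4A), and 8 genes whose entries overlap it or whose products work with GdX in membrane protein insertion were followed across 7 mouse spleen libraries. The 9 genes, of 17920 in the expression table, were chosen by name. They are Ubl4a, the overlapping entry Gm44504, and Sgta, Bag6, Get4, Rnf126, Asna1, Wrb and Camlg. Gm44504 was included because its level separated the genotypes in these same libraries, and Ubl4a is the gene the mice were made to lack, so the genotype values of both are given as a description without a test. The other 7 genes were tested by genotype, and all 9 by time. All 9 had a mean of at least 1 FPKM (fragments per kilobase of transcript, relative to all mapped fragments) and passed the filter on low values.

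The mice were labelled C57BL/6 and were 8 weeks old. Each received 20 mg/kg lipopolysaccharide (LPS), a bacterial cell wall component, into the peritoneum. Spleens came from wild-type mice at 90 min (n = 2) and 6 h (n = 2) and from GdX-deficient mice at 90 min (n = 2) and 6 h (n = 1). The genotype is labelled GdX-/-, and the protocol writes GdX-/Y, which is the notation for a male with a deleted X-linked gene. Which part of Ubl4a was removed, and in which cells, is not given in the sources used here. Every group had LPS, and no unstimulated spleen was analysed here. The study measured how the loss of GdX alters spleen RNA during this response.

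Tail-anchored proteins carry a single membrane segment at the C terminus, so they leave the ribosome before they can be inserted. SGTA binds that segment first, and the complex of BAG6, UBL4A and GET4 passes suitable clients on to the ATPase GET3, encoded by Asna1. GET3 docks at a receptor of the endoplasmic reticulum made of WRB and CAML (Wrb and Camlg), which inserts the protein. Clients that are not inserted are ubiquitinated by RNF126, a ligase recruited by BAG6, and degraded. UBL4A joins SGTA to the complex through its ubiquitin-like fold.

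The start of the Ubl4a coding sequence is shown because the 2 entries at this locus carry the same one. In GENCODE M21, Ubl4a (Entrez gene 27643) is a 4-exon transcript of 2442 bases on the minus strand of chromosome X, and Gm44504 (Entrez gene 100169864) is a 7-exon transcript of 1038 bases on the same strand. They shared 695 exonic bases, which is 28.5% of Ubl4a and 67.0% of Gm44504. The shared bases hold the whole open reading frame of 157 codons. Its first 154 bases (chromosome X 74368153 to 74368463), which encode much of the ubiquitin-like fold, are printed with coding exon 1 in lower case and coding exon 2 in capitals.
Ubl4a and Gm44504 coding exons 1 and 2 (GENCODE M21, minus strand, 5′ to 3′): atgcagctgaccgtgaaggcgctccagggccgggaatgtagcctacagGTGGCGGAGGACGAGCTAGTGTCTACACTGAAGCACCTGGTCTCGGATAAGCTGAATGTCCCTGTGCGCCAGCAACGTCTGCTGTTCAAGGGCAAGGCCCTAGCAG

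Gm44504 is a readthrough transcript that starts in the neighbouring gene Slc10a3, which encodes a member of a bile acid transporter family, and runs into Ubl4a. RefSeq lists Slc10a3-ubl4 as its synonym. In the RefSeq table of GRCm38.p6, Ubl4a spans chromosome X 74365718 to 74368548, Gm44504 spans 74367447 to 74373349 and Slc10a3 (Entrez gene 214601) spans 74369217 to 74373349. Of the 343 Gm44504 bases outside Ubl4a, 258 lie in Slc10a3 exons and 85 in neither gene. The join between exon 3, the last that lies in Slc10a3, and exon 4 also tells the readthrough from both genes. Its 30 bases were found in 1 transcript of the GENCODE set. In the sequence, lower case is the end of exon 3 and capitals are the start of exon 4.
Gm44504 readthrough join (5′ to 3′): tcaagaaaagcagagCCACAGCTCCCAGAC

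**Figure D1:**
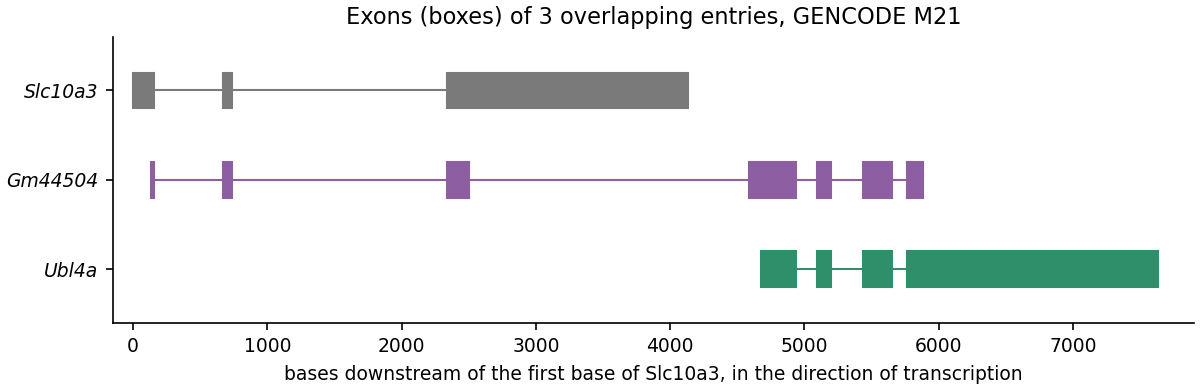
Exons (boxes) and introns (lines) of Slc10a3, Gm44504 and Ubl4a in GENCODE M21, drawn to scale. The x axis is the distance in bases from the first base of Slc10a3 in the direction of transcription. Gm44504 takes its first exons from Slc10a3 and its last ones from Ubl4a, and the long last exon of Ubl4a extends 1747 bases past Gm44504.

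The entries start 4801 bases apart, so their promoters are different sequences. Both windows of 300 bases are shown. In RefSeq, Gm44504 and Slc10a3 start at the same base, so the Gm44504 window is also that of Slc10a3. Most of the Ubl4a window lies in exon 4 of Gm44504. The part of either window in the genotype values was not tested. The windows are from RefSeq (GRCm38.p6, minus strand). Capitals mark GC boxes (GGGCGG), ETS cores (CCGGAA) and CCAAT boxes (CCAAT) on either strand. Runs of capitals can hold overlapping matches.
Ubl4a promoter, chrX:74368499-74368798: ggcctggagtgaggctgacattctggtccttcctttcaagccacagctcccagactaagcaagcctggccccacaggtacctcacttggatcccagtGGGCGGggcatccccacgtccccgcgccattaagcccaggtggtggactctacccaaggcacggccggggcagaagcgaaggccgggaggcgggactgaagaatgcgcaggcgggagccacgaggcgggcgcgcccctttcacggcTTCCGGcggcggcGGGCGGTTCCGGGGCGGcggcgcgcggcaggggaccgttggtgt
Gm44504 promoter, chrX:74373300-74373599: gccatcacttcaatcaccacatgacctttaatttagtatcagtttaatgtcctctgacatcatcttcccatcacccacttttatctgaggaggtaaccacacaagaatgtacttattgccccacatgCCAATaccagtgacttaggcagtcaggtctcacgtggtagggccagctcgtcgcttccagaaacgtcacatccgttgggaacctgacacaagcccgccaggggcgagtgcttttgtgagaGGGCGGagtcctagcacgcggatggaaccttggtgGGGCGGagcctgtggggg
The Ubl4a window held 28 CpG pairs and 69.7% G or C, and the Gm44504 window held 11 and 53.0%, against medians of 7 and 52.7% over the 32851 promoters of the table. GGGCGG occurred 3 times in the Ubl4a window and 2 times in that of Gm44504, and it was in 35.7% of all promoters. CCGGAA occurred 2 times in the Ubl4a window and 0 times in the other (14.9% of all promoters). CCAAT (37.4% of all) and CACGTG (7.15% of all) each occurred only in the Gm44504 window, 1 time. GGG followed by any 2 bases and TTTCC, a form of the NF-kB motif, was in 1.63% of all promoters and in none of the windows of the 8 genes with an entry in the table. These matches describe the letters of the windows, and Camlg had no window.

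The Ubl4a entry had fragments in all 7 libraries. Its 1747 bases outside Gm44504 are an unbroken stretch of the last exon, past the open reading frame. Its FPKM does not tell that stretch from the coding sequence, so presence of the coding sequence in GdX-deficient spleen cannot be read from it. At 90 min the entry stood at 5.62 and 7.50 FPKM in wild type and at 4.03 and 5.69 FPKM in GdX-deficient spleen. At 6 h it stood at 11.88 and 14.01 FPKM in wild type and at 10.56 FPKM in the GdX-deficient library. The genotypes overlapped at 90 min, and at 6 h the GdX-deficient library lay just under both wild-type ones. In order of level, GdX-deficient at 90 min was lowest, then wild type at 90 min, GdX-deficient at 6 h and wild type at 6 h, and the first 2 did not differ beyond their spread. The wild-type mean was 1.35 times the GdX-deficient mean at 90 min and 1.23 times at 6 h.

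Gm44504 separated the genotypes completely. At 90 min wild type had 15.40 and 14.52 FPKM, and at 6 h it had 51.10 and 24.04 FPKM. GdX-deficient spleen had 1.01 and 1.86 FPKM at 90 min and 0.66 FPKM at 6 h. Every wild-type library was above every GdX-deficient one, by 10.4 times between the means at 90 min and 56.9 times at 6 h. Without wild-type 6 h replicate 1, the ratio at 6 h was 36.4. These are the values for which Gm44504 was chosen. From the estimated depth, the GdX-deficient values correspond to about 21, 36 and 13 fragments, and the wild-type values to about 298 to 1101.

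On the FPKM scale, Gm44504 was the higher entry in every wild-type library and the lower entry in every GdX-deficient one. Gm44504 made up 73.3% and 65.9% of the summed FPKM of the 2 entries in wild type at 90 min and 81.1% and 63.2% at 6 h. It made up 20.0% and 24.6% in GdX-deficient spleen at 90 min and 5.88% at 6 h. How the authors divided fragments from the 695 shared bases is not given in the sources used here, so the level of each entry alone is uncertain and their sum is given as well. The sum was 21.02 and 22.02 FPKM in wild type and 5.04 and 7.55 FPKM in GdX-deficient spleen at 90 min, and 62.98 and 38.05 FPKM against 11.22 FPKM at 6 h. It was lower in the GdX-deficient libraries at each time, by 3.42 times at 90 min and 4.50 times at 6 h. Most of this gap came from Gm44504, at 13.5 of 15.2 FPKM at 90 min and 36.9 of 39.3 FPKM at 6 h, the values for which that entry was chosen, so the sum is no separate check of the genotype labels. FPKM divides by length, and Gm44504 is the shorter entry. With each entry weighted by its length, the ratios were 2.36 and 2.67, and the Gm44504 share was 42.2% to 64.6% in wild type and 2.59% to 12.2% in GdX-deficient spleen. On that scale Ubl4a was the higher entry in replicate 2 of wild type at 90 min and at 6 h, where the Gm44504 share was 45.1% and 42.2%.

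Slc10a3, upstream of both, gives a view of the locus outside Ubl4a. It stood at 4.42 and 5.44 FPKM in wild type and 2.86 and 3.38 FPKM in GdX-deficient spleen at 90 min, and at 7.03 and 15.18 FPKM against 6.30 FPKM at 6 h. The GdX-deficient libraries were below the wild-type ones at each time, but the difference did not pass the test. The log2 difference was -0.52 at 90 min (SE 0.37, limma adjusted p = 0.641) and -0.57 with time as covariate (SE 0.28, limma adjusted p = 0.210). Because 258 of its exonic bases are also in Gm44504, the 2 entries are not independent.

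**Figure D2:**
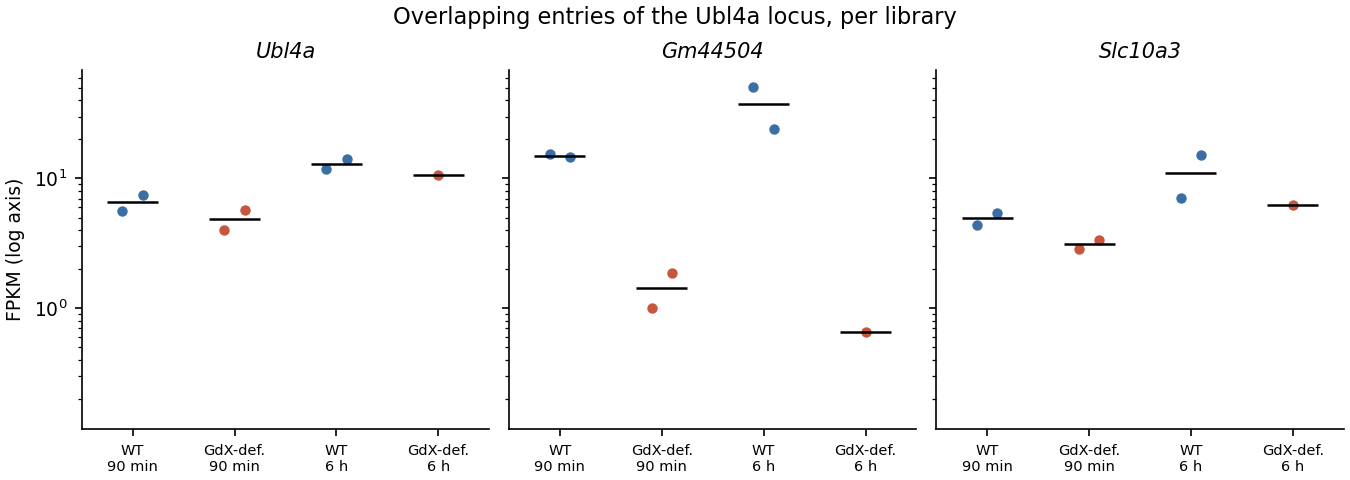
FPKM (log axis) of Ubl4a, Gm44504 and Slc10a3 in each library, 1 point per library, with the group mean as a bar. Blue is wild type and red is GdX-deficient. For Gm44504 the GdX-deficient libraries lie between 0.66 and 1.86 FPKM and the wild-type ones between 14.52 and 51.10 FPKM, while the Ubl4a groups at 90 min overlap.

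Other genes close to Ubl4a on the X chromosome were listed for comparison. Of 14 listed neighbours (Slc10a3 included), 13 were tested and 0 passed the threshold at 90 min, where 0.0176% of all tested genes did, or with time as covariate, where 0.0439% did. Without GdX-deficient 90 min replicate 1, the second count was 3 of 13, and 1674 of all tested genes were called. Their median log2 difference with time as covariate was 0.38, against 0.16 over all tested genes. G6pdx, the first enzyme of the pentose phosphate pathway, stood at 11.20 and 14.52 FPKM in wild type and 13.77 and 16.50 FPKM in GdX-deficient spleen at 90 min (log2 difference 0.22, SE 0.34, limma adjusted p = 0.802). Fam3a stood at 4.61 and 4.46 FPKM against 3.95 and 7.67 FPKM (0.24, SE 0.33, limma adjusted p = 0.781). Ikbkg, the regulatory subunit of the IKK kinase of the NF-kB pathway, stood at 4.70 and 4.94 FPKM against 5.30 and 7.67 FPKM (0.34, SE 0.32, limma adjusted p = 0.685). The intervals of 2 SE around these differences all include 0.

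The 7 partner genes were then compared between genotypes. None passed the threshold of an adjusted p of 0.05 at 90 min (0 of 7), where 0.0176% of the 11378 tested genes did, and 0 of 7 had an unadjusted p under 0.05, where 7.58% of all genes did. With time as covariate the count was again 0 of 7, against 0.0439% of all genes, and 0 of 7 had an unadjusted p under 0.05, against 27.0% of all genes. The log2 differences at 90 min ran from -0.20 to 0.32, with limma adjusted p from 0.715 to 0.958. The intervals of 2 SE reached from -0.70, for Get4, to 1.00, for Bag6, so a 2-fold difference in Bag6 lies at the edge of its interval.

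Sgta, the first receptor for tail-anchored clients, stood at 22.37 and 26.16 FPKM in wild type and 22.00 and 25.10 FPKM in GdX-deficient spleen at 90 min. The libraries of the genotypes interleaved (log2 difference -0.04, SE 0.25, limma adjusted p = 0.958). Bag6 (chromosome 17, 35135156 to 35147321), the scaffold to which UBL4A and GET4 bind, stood at 25.59 and 42.94 FPKM in wild type and 42.33 and 41.11 FPKM in GdX-deficient spleen. Here the wild-type replicates lay further apart than the genotypes (0.32, SE 0.34, limma adjusted p = 0.715). Get4, which links the complex to GET3, stood at 25.78 and 24.62 FPKM in wild type and 20.94 and 22.64 FPKM in GdX-deficient spleen. Both GdX-deficient libraries were below both wild-type ones (-0.20, SE 0.25, limma adjusted p = 0.756), as they were for 23.4% of all tested genes.

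Rnf126, the ubiquitin ligase of the triage branch, stood at 23.81 and 33.26 FPKM in wild type and 31.86 and 31.31 FPKM in GdX-deficient spleen at 90 min. Asna1 (listed as Get3 in RefSeq) stood at 21.68 and 28.76 FPKM against 28.27 and 28.51 FPKM. In both genes the GdX-deficient libraries fell inside the wild-type range (log2 differences 0.16, SE 0.26, and 0.18, SE 0.31; limma adjusted p = 0.815 and 0.830). Wrb (Get1 in RefSeq), the receptor subunit that holds GET3 during insertion, was the lowest of the 7 on this per-length scale, at 0.98 and 1.62 FPKM in wild type and 1.04 and 2.43 FPKM in GdX-deficient spleen (0.22, SE 0.33, limma adjusted p = 0.802). Camlg, its partner subunit, stood at 10.52 and 10.72 FPKM against 11.83 and 13.74 FPKM (0.24, SE 0.27, limma adjusted p = 0.730). Both GdX-deficient libraries were higher for Camlg, as they were for 24.1% of all tested genes.

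**Figure D3:**
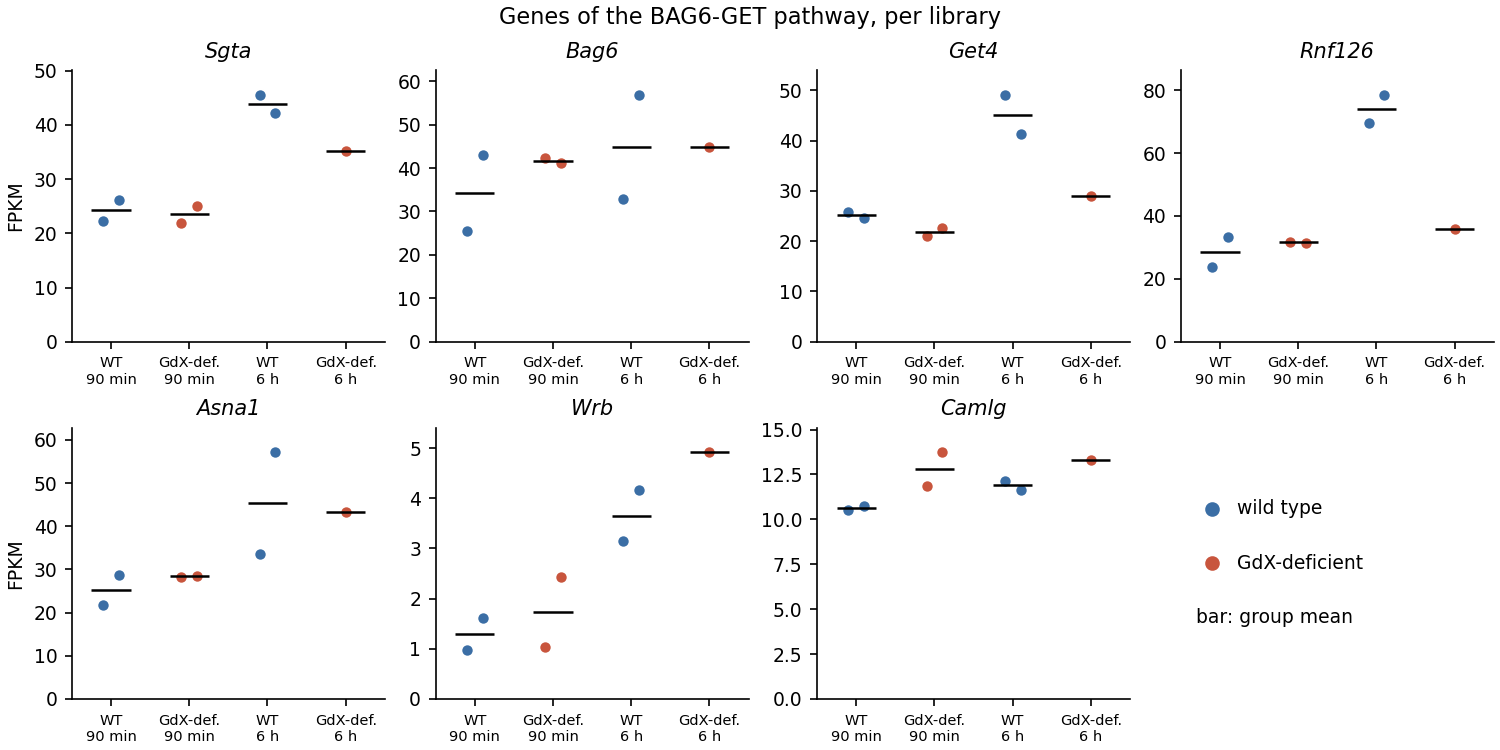
FPKM of Sgta, Bag6, Get4, Rnf126, Asna1, Wrb and Camlg in each library, 1 point per library, with the group mean as a bar and axes that start at 0. Blue is wild type and red is GdX-deficient. The groups at 90 min lie close together, while the wild-type libraries at 6 h stand apart for Rnf126 at 69.72 and 78.50 FPKM.

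At 6 h the only GdX-deficient library was set beside the wild-type pair without a test. Rnf126 had 36.00 FPKM in the GdX-deficient library, against 69.72 and 78.50 FPKM in the wild-type pair, a 2.06-fold difference of the means. Across all tested genes, 22% differed at least 2-fold with the library outside the pair, and 80.3% lay outside the pair at any size. Get4 (29.00 against 49.06 and 41.25 FPKM) and Sgta (35.13 against 45.55 and 42.19 FPKM) were also lower in the GdX-deficient library, which was below the pair for 25.3% of all tested genes and above it for 54.9%. Wrb (4.92 against 3.14 and 4.16 FPKM) and Camlg (13.33 against 12.15 and 11.62 FPKM) were higher, but the sign of Camlg turned under both rescalings of the libraries (-0.16 with quantile normalization and -0.08 with upper-quartile scaling) and that of Wrb under quantile normalization (-0.22). Bag6 (44.82 FPKM) and Asna1 (43.37 FPKM) lay between the wild-type libraries. The median log2 difference of all tested genes was 0.32 at this time, so the lower values of Rnf126 (-1.02), Get4 (-0.62) and Sgta (-0.31) lay further below the bulk of genes than below 0.

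The 9 genes were compared between 90 min and 6 h in wild-type spleen. All 9 log2 differences were above 0, with a median of 0.83 against 0.05 over all tested genes. In 8 of 9 genes both 6 h libraries exceeded both 90 min libraries, where 30.3% of all tested genes did so. Only Rnf126 passed the adjusted threshold, 1 of 9 against 4.39% of all genes called higher, and 7 of 9 had an unadjusted p under 0.05, against 28.7% of all genes. Rnf126 rose from 23.81 and 33.26 FPKM to 69.72 and 78.50 FPKM, a log2 change of 1.36 (SE 0.26, limma adjusted p = 0.015), or 2.57-fold on the log2(FPKM + 1) scale. This call was lost when the lower wild-type 90 min library, replicate 1, was left out (1.13, limma adjusted p = 0.142).

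None of the genes upstream of GET3 passed the threshold, with log2 differences from 0.37 for Bag6 to 1.18 for Gm44504. Sgta went from 22.37 and 26.16 to 45.55 and 42.19 FPKM (0.83, SE 0.25, limma adjusted p = 0.064). Get4 went from 25.78 and 24.62 to 49.06 and 41.25 FPKM (0.81, SE 0.25, limma adjusted p = 0.068). Ubl4a differed by 0.89 (SE 0.31, limma adjusted p = 0.094) and Gm44504 by 1.18 (SE 0.39, limma adjusted p = 0.083). For Gm44504 the 6 h replicates, at 51.10 and 24.04 FPKM, differed from each other by more than the lower of them differed from the 90 min pair. Its difference was 0.65 without wild-type 6 h replicate 1 and passed the threshold without replicate 2 (1.71, limma adjusted p = 0.0042). Ubl4a passed with quantile normalization (0.81, limma adjusted p = 0.042). Bag6 had 32.89 and 56.83 FPKM at 6 h, which overlapped the 90 min pair (0.37, SE 0.34, limma adjusted p = 0.512).

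For the ATPase and the receptor at the membrane, the size of the difference varied by gene. Asna1 went from 21.68 and 28.76 to 33.51 and 57.16 FPKM (0.79, SE 0.31, limma adjusted p = 0.132), and its value was 0.41 without wild-type 6 h replicate 2 and 1.16 without replicate 1, where it passed the threshold (limma adjusted p = 0.024). Wrb went from 0.98 and 1.62 to 3.14 and 4.16 FPKM (1.02, SE 0.33, limma adjusted p = 0.077), and it passed with quantile normalization, with upper-quartile scaling and without wild-type 6 h replicate 1 (limma adjusted p = 0.026, 0.0496 and 0.041). Camlg went from 10.52 and 10.72 to 12.15 and 11.62 FPKM (0.15, SE 0.27, limma adjusted p = 0.761). The difference between Wrb and Camlg was not tested.

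In GdX-deficient spleen the 6 h library was above both 90 min libraries for 7 of 9 genes, as it was for 56.8% of all tested genes. Ubl4a went from 4.03 and 5.69 to 10.56 FPKM (log2 difference 0.99) and Wrb from 1.04 and 2.43 to 4.92 FPKM (1.16), beside 0.89 and 1.02 in wild type. Rnf126 went from 31.86 and 31.31 to 36.00 FPKM (0.18), against 1.36 in wild type. Of the 7 genes, Bag6 (0.10) and Rnf126 turned below 0 under both rescalings of the libraries, to -0.043 and -0.0011 with quantile normalization and to -0.15 and -0.063 with upper-quartile scaling. Gm44504 was the exception in direction, at 0.66 FPKM below 1.01 and 1.86 FPKM (-0.53), a position held by 15.8% of all tested genes. Over these 3 libraries the median of all tested genes was 0.25, and none of these differences between genotypes was tested.

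With both genotypes in a fit of time with genotype as covariate, Wrb (1.08, SE 0.26, limma adjusted p = 0.041) and Ubl4a (0.93, SE 0.23, limma adjusted p = 0.046) passed the threshold. That is 2 of 9 genes, against 2.79% of all tested genes called higher at 6 h, and 6 of 9 had an unadjusted p under 0.05, against 26.6% of all genes. Rnf126 did not pass here (0.89, SE 0.27, limma adjusted p = 0.073). The call of Ubl4a was lost without any 1 of the 7 libraries, with adjusted p from 0.0576 to 0.207, and that of Wrb without 5 of them. The lowest and highest values for Wrb over these omissions were adjusted p = 0.0450 and 0.172.

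**Figure D4:**
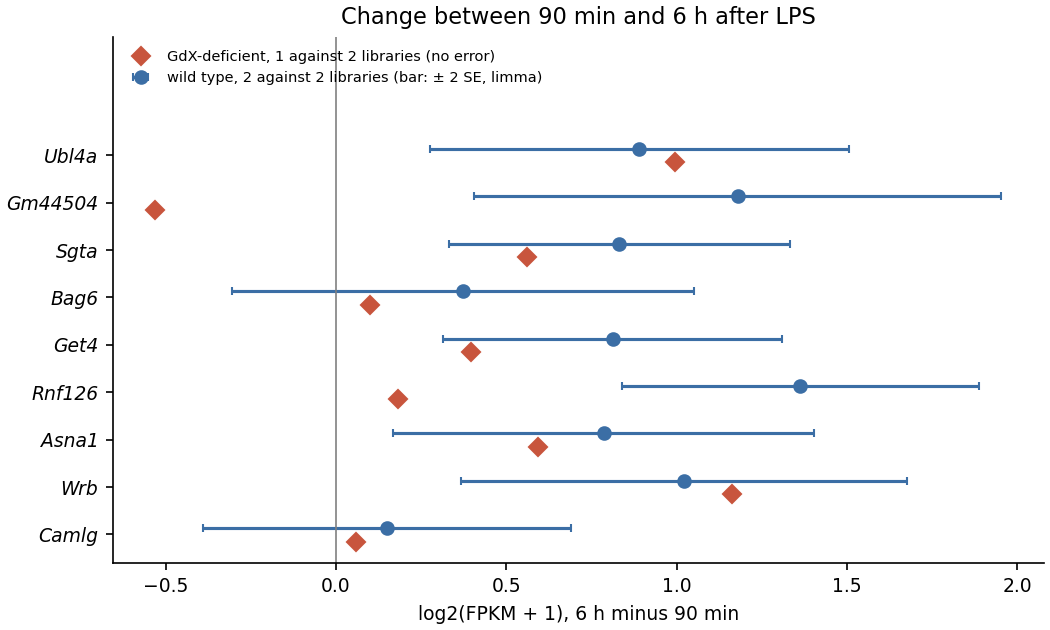
Difference in log2(FPKM + 1) between 6 h and 90 min for the 9 genes. Blue circles are wild type (2 against 2 libraries, bars of 2 moderated SE on each side) and red diamonds are GdX-deficient (1 against 2 libraries, no error). The wild-type values lie between 0.15 and 1.36, and the GdX-deficient value of Gm44504 lies at -0.53.

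Other features of the libraries moved with time and genotype. Summed over 6 genes, B cell markers stood at 1326 to 1466 FPKM in wild type at 90 min and 468 to 469 FPKM at 6 h, and at 1155 to 2010 FPKM and 1727 FPKM in GdX-deficient spleen. The T cell sum was 255 to 309 and 118 to 145 FPKM in wild type, and 225 to 279 and 248 FPKM in GdX-deficient spleen. The red pulp macrophage sum was 598 to 657 and 280 to 296 FPKM, and 578 to 627 and 512 FPKM. The neutrophil sum was 675 to 1099 and 693 to 1045 FPKM, and 955 to 4129 and 2350 FPKM. The sum of 4 stromal markers was 69.5 to 89.7 and 27.3 to 41.5 FPKM, and 44.7 to 50.7 and 73.9 FPKM. The sum of 6 genes induced by tissue handling stress was 186 to 263 and 60.2 to 97.0 FPKM, and 135 to 227 and 89.5 FPKM. The sum of 4 NK cell markers was 112 to 128 and 156 to 206 FPKM, and 138 to 169 and 196 FPKM, with 0 of 4 called in either direction over time in wild type. The sum of 3 fat tissue markers was 37.5 to 50.9 and 10.1 to 20.9 FPKM, and 17.3 to 18.3 and 4.41 FPKM, and the sum of 6 pancreas markers was 7.49 to 8.45 and 2.64 to 3.42 FPKM, and 8.02 to 8.53 and 5.33 FPKM. Of these, 2 fat and 5 pancreas markers were at 0 in some library, and the 1 tested marker of each list was called lower over time in wild type. Over time in wild type, 2 of 6 B cell, 3 of 6 T cell, 4 of 6 macrophage, 2 of 6 neutrophil, 2 of 4 stromal and 3 of 6 stress markers were called lower, where 6.32% of all tested genes were, and none of the markers of these 6 lists was at 0 in any library. In bulk spleen, fewer cells of a type and less RNA per cell cannot be told apart. The part of these shifts in the time and 6 h genotype values of the machinery was not tested. The libraries had an estimated 19400000 to 21800000 mapped fragments. Over 3052 genes, the log2 difference of replicate 1 minus 2 was related to the length of the transcript. Spearman's rho was -0.467 in wild type at 90 min, -0.604 in wild type at 6 h and -0.139 in GdX-deficient spleen at 90 min. The wild-type replicate pairs of Bag6 and Asna1 lay wide apart, with replicate 2 higher. At 6 h that of Gm44504, an entry of 1038 bases, also did, with replicate 1 higher (51.10 and 24.04 FPKM). The part of length in these gaps was not tested.

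The wider pathway was described by lists of genes. Of 18 tested partner and client-triage genes (chaperones, ubiquilins and extraction factors), 1 was called higher and 0 lower over time in wild type, a share near the 4.39% of all tested genes called higher. Hsp90ab1, a cytosolic HSP90 chaperone, rose from 827.53 and 918.53 to 2207.21 and 1764.07 FPKM (1.18, SE 0.29, limma adjusted p = 0.032). The call was lost without any 1 of 4 libraries, wild-type 90 min replicates 1 and 2 and GdX-deficient 90 min replicates 1 and 2 (adjusted p = 0.0631 to 0.223), with upper-quartile scaling (adjusted p = 0.0973), in a fit of only the 4 wild-type libraries (adjusted p = 0.0677) and with no filter on low values (adjusted p = 0.0726). The median of the list was 0.37, against 0.05 over all tested genes.

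The other routes into the endoplasmic reticulum gave few calls. The signal recognition particle and the Sec61 channel serve proteins with an N-terminal signal. Of their 22 tested genes, 0 were called in either direction over time in wild type (lowest limma adjusted p = 0.101), where 10.7% of all tested genes were. The count did not stay at 0 without either wild-type 6 h replicate, which leaves 1 library in that group. Their median was 0.17 against 0.05 over all tested genes. Of 10 genes of the ER membrane complex, an insertase for a further set of membrane proteins, 0 were called higher and 1 lower, where 6.32% of all tested genes were called lower. Emc9 fell from 9.23 and 6.59 to 3.01 and 1.57 FPKM (-1.46, SE 0.33, limma adjusted p = 0.025), and the call was lost without wild-type 90 min replicate 1 or 2 or wild-type 6 h replicate 2 (adjusted p = 0.190, 0.0539 and 0.0519). The median of that list was 0.18.

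Among 33 tested genes for tail-anchored proteins, 0 were called higher and 2 lower over time in wild type, with a median of 0.05. The list is of tail-anchored proteins in general, and whether each is a client of this machinery was not tested. The share called lower was near the 6.32% of all tested genes. Bcl2l1, which encodes the anti-apoptotic protein BCL-XL, fell from 165.25 and 157.04 to 52.39 and 43.41 FPKM (-1.74, SE 0.38, limma adjusted p = 0.021). It kept its call without each library in turn. Cyb5a, for the electron carrier cytochrome b5, fell from 116.70 and 90.50 to 50.06 and 39.24 FPKM (-1.20, SE 0.26, limma adjusted p = 0.022), a call that was lost without wild-type 90 min replicate 1 (adjusted p = 0.190). Both genes are also abundant in red cell precursors, and the sum of 6 erythroid markers stood at 550 to 623 FPKM at 90 min and 199 to 271 FPKM at 6 h in wild type, with 5 of 6 called lower. In GdX-deficient spleen it stood at 1021 to 1222 FPKM and 604 FPKM. The part of the erythroid shift in these changes was not tested.

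Of 12 tested genes for signalling proteins listed as GdX partners, 1 was called higher and 0 lower over time in wild type, where 4.39% of all tested genes were called higher. Trim28, a transcriptional corepressor, rose from 40.91 and 57.24 to 90.35 and 116.91 FPKM (1.07, SE 0.27, limma adjusted p = 0.037), and the call was lost without any 1 of 5 libraries, wild-type 90 min replicates 1 and 2, GdX-deficient 90 min replicates 1 and 2 and wild-type 6 h replicate 2 (adjusted p = 0.0588 to 0.309), with quantile normalization (adjusted p = 0.0646), in a fit of only the 4 wild-type libraries (adjusted p = 0.0568) and with no filter (adjusted p = 0.0729). With no filter the calls of Emc9, Bcl2l1 and Cyb5a were lost too (adjusted p = 0.0765, 0.0894 and 0.0568). By genotype, 0 of the 105 tested genes of the lists were called at 90 min or with time as covariate. Without GdX-deficient 90 min replicate 1, the second count was 10, while the count over all tested genes went from 5 to 1674. The medians by genotype with time as covariate were -0.06 for the partner list, -0.12 for the ER membrane complex and -0.17 for the translocation list. They were 0.02 for the tail-anchored list and -0.15 for the signalling list, against 0.16 over all tested genes.

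**Figure D5:**
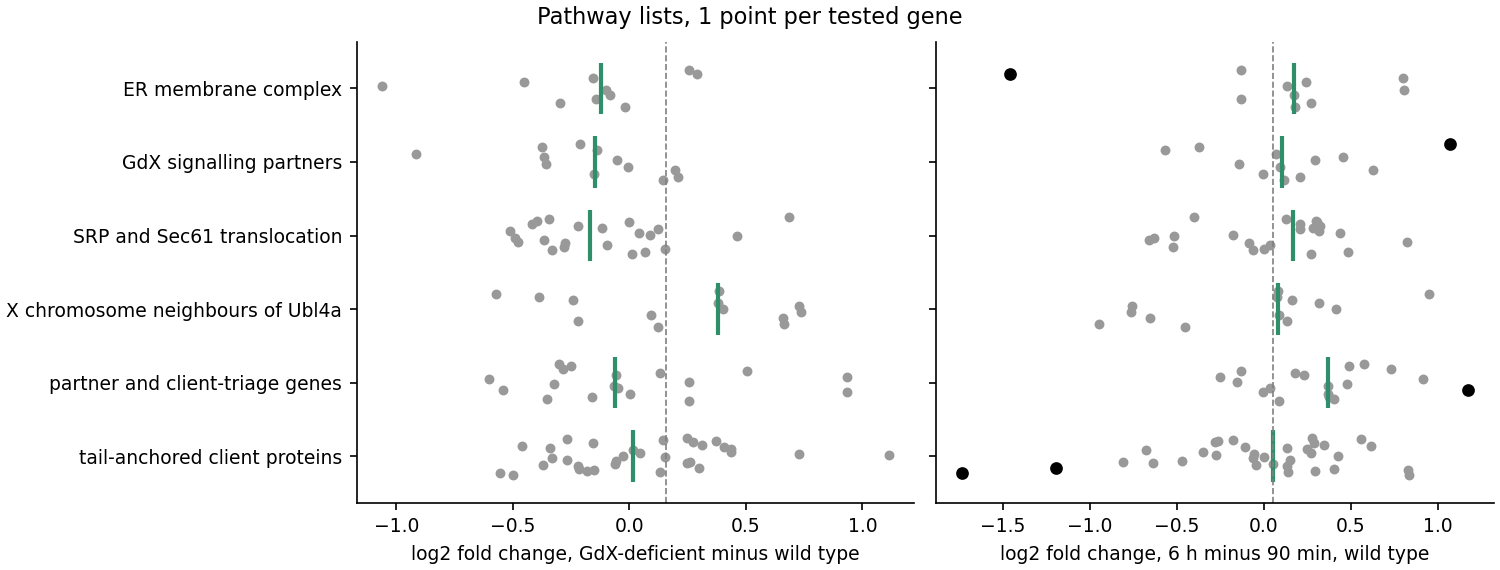
Log2 fold changes of the tested genes of 6 lists, 1 point per gene, for genotype with time as covariate (left) and for time in wild type (right). Black points passed the adjusted threshold, green bars are list medians and the dashed line is the median of all tested genes. No point on the left passed, and 5 points passed on the right.

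The genes whose pattern over the 7 libraries was most like each entry were found by Pearson's r of log2(FPKM + 1), as a description over libraries that share groups. For Ubl4a they were Plscr3, Yipf5 and Cyp20a1 (r = 0.984 each), Eno1 (r = 0.982) and Trip10 (r = 0.981). Plscr3 stood at 10.19, 11.19, 8.67 and 10.53 FPKM at 90 min, in wild type and then GdX-deficient spleen, and at 14.32, 15.97 and 15.01 FPKM at 6 h, so it was higher at 6 h in both genotypes. For Gm44504 they were Tmem70 (r = 0.986), Sms (r = 0.980), Utp3 (r = 0.976), Ndufaf2 (r = 0.971) and Zc3h15 (r = 0.966). Tmem70 stood at 23.30 and 22.23 FPKM in wild type and 17.27 and 18.00 FPKM in GdX-deficient spleen at 90 min, a far smaller gap than that of Gm44504. For the sum of the 2 entries they were Uchl1 (r = 0.986), Kcmf1 (r = 0.982), Ddx47 (r = 0.976), Dph3 (r = 0.974) and Prdx4 (r = 0.973). Within the machinery the highest r was between Ubl4a and Sgta (0.950), which bind each other as proteins, followed by Get4 and Sgta (0.938), and Camlg had r of 0.117 with Ubl4a.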

How the data were processed

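RNA from whole spleen, labelled as splenocytes, was sequenced on a BGISEQ-500 instrument in 7 libraries from separate mice, per the labels' protocols. The authors deposited FPKM values with 2 decimals, per the file headers. The submitters' processing notes name HISAT, HISAT2 2.0.4, Bowtie2 and RSEM without their roles, and the build GRCm38.p5. How overlapping entries were treated and whether strand was used are not given in the sources used here, so Ubl4a, Gm44504 and Slc10a3 may share fragments. Depth was estimated from the steps between low FPKM values. It came to 19400000 to 21800000 mapped fragments per library.

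Values were converted to log2(FPKM + 1), which understates changes of low genes. The 11378 genes with a mean of at least 1 FPKM entered limma (version 3.58.1, R version 4.3.3), with a trend on mean expression, two-sided p-values and Benjamini-Hochberg adjustment over all tested genes at 0.05. Genotype at 90 min and time in wild type came from a fit of the 4 groups, and both effects also from additive fits. The group with 1 library borrows its spread from the others, and comparisons that rest on it alone were described without a test. P-values rest on the spread between these libraries of separate mice. That spread includes the replicate differences related to transcript length. Genes were named by rule: all 9 genes of the machinery, up to 3 higher and 3 lower genes past the threshold per list, X chromosome neighbours by value, and the 5 closest patterns per entry, leaving out predicted genes. Camlg was found through its RefSeq synonym Caml, the other 8 by symbol. Transcript geometry and the coding sequence came from GENCODE M21, coordinates and promoters from RefSeq GRCm38.p6. The tests were checked on simulated data. The genes and lists were chosen with earlier results of these data known. The alternatives tried were other pseudocounts, filters, scalings, a replicate block, fits of fewer libraries and leaving out each library.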

Additional observations from a re-analysis of the deposited data

Results flagged for a closer look

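The values of Gm44504 over time had opposite signs in the genotypes, and neither passed a test (limma adjusted p = 0.083 in wild type, no test in GdX-deficient spleen). Its log2 difference between 6 h and 90 min was 1.18 in wild type, where both 6 h libraries were above both 90 min libraries, and -0.53 in GdX-deficient spleen, where the 6 h library was below both 90 min libraries. The difference between the genotypes was not tested, and the GdX-deficient value rests on about 13 fragments at 6 h and about 21 and 36 at 90 min.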

How the results depend on the processing

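With 2 libraries a side, few calls of single genes were stable. Over time in wild type, 1 of the 9 genes was called. This became 3 with quantile normalization, 2 with upper-quartile scaling and 0 to 3 when each library was left out, 0 being without wild-type 90 min replicate 1. Time with genotype as covariate called 2 genes, and this became 1 with a pseudocount of 0.1, 1 with a mean of at least 5 FPKM, where Wrb was not tested, 0 with no filter and 0 to 1 when each library was left out. The genotype counts stayed at 0 in every alternative run, of 7 genes, or of 6 with a mean of at least 5 FPKM. The replicate numbers of the titles were not tied to a shared source by the labels. Deviations of same-numbered libraries correlated at 0.768 between the wild-type times, 0.0797 between wild type at 6 h and GdX-deficient at 90 min, and -0.12 between genotypes at 90 min. With the replicate block, 6 genes were called over time in wild type, Rnf126, Ubl4a, Gm44504, Sgta, Get4 and Wrb (2345 of all genes against 1218), 2 with genotype as covariate, and 0 in both genotype comparisons. With crossed numbers, an alternative chosen after seeing the data, 0 of 7 genes and 2 of all genes were called by genotype at 90 min. The ratio of the summed entries at 90 min was 3.42, 2.85 to 4.27 when each library was left out and 2.36 when weighted by length, also chosen after seeing the data.

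Over all genes, the count by genotype at 90 min went from 2 to 181 in a fit of only its 4 libraries, to 173 and 183 without wild-type 6 h replicate 1 or 2, and to 42 and 13 without wild-type 90 min replicate 2 or GdX-deficient 90 min replicate 1. It was 6 without wild-type 90 min replicate 1. By genotype with time as covariate, 5 genes became 242 without wild-type 90 min replicate 2 and 1674 without GdX-deficient 90 min replicate 1, and 2 without the GdX-deficient 6 h library. Over time in wild type, 1218 became 450 or 550 without wild-type 90 min replicate 1 or 2. Over time with genotype as covariate, 619 became 154, 187, 343, 178 and 377 without wild-type 90 min replicate 1 or 2, wild-type 6 h replicate 1 or 2 or GdX-deficient 90 min replicate 2, and 1204 without the GdX-deficient 6 h library. No filter gave 635 genes over time in wild type and 104 of 619 with genotype as covariate. The split over time in wild type was 499 higher and 719 lower, and 465 and 1021 with upper-quartile scaling. With genotype as covariate it was 318 and 301, then 185 and 531 with upper-quartile scaling and 305 and 578 with quantile normalization. The 5 list genes called over time in wild type became 0 with no filter, 3 in a fit of only those 4 libraries, 12 with the block and 1 to 9 when each library was left out.

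Signs turned for small differences. With quantile normalization these included Wrb by genotype with time as covariate (-0.0182) and at 6 h (-0.22). They also included Camlg at 6 h (-0.16) and over time with genotype as covariate (-0.0427). Over time in GdX-deficient spleen, Bag6 (-0.0430) and Rnf126 (-0.0011) were among them. With upper-quartile scaling they included Asna1 by genotype with time as covariate (-0.0474). Camlg at 6 h (-0.0836) and over time with genotype as covariate (-0.0260) turned too. Over time in GdX-deficient spleen, Bag6 (-0.15) and Rnf126 (-0.0630) were among them. When each library was left out, genotype values at 90 min ranged from -0.0408 to 0.68 for Bag6, -0.0181 to 0.37 for Asna1, -0.0724 to 0.39 for Rnf126, -0.15 to 0.0682 for Sgta and -0.16 to 0.59 for Wrb. With time as covariate they ranged from -0.0160 to 0.24 for Asna1 and -0.55 to 0.16 for Rnf126, and over time in wild type from -0.0123 to 0.76 for Bag6. The cause was not tested.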
